A study of Mus musculus with 6 samples.

Results

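The genes described here are the 10 core genes of the circadian clock *Arntl* (also named *Bmal1*), *Clock*, *Npas2*, *Per1*, *Per2*, *Per3*, *Cry1*, *Nr1d1*, *Nr1d2* and *Dbp*. They were taken by name from a table of 16018 genes measured by RNAseq in mouse hearts, and all 10 were in it. The table held the hearts of 3 female KOb/c mice and 3 female WT mice, all between 4 and 5 weeks of age. KOb/c mice are NBCe1-B/C KO mice on a C57BL/6J background: they lack the NBCe1-B and NBCe1-C variants of the sodium bicarbonate cotransporter encoded by *Slc4a4*, in every tissue and from conception, while NBCe1-A, the variant of the kidney, is left. WT mice came from the same kind of cross between heterozygous parents and carry no targeted allele. Each library was made from the heart RNA of 1 mouse, the replicates are separate animals, and the labels give no treatment.

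The clock is a loop of transcription and repression that runs in nearly every cell, heart muscle cells included. ARNTL pairs with CLOCK, or with its relative NPAS2, and the pair binds E-boxes and switches on *Per*, *Cry*, *Nr1d1*, *Nr1d2* and *Dbp*. PER and CRY proteins then return to the nucleus and block the pair. The nuclear receptors REV-ERBα and REV-ERBβ, encoded by *Nr1d1* and *Nr1d2*, repress *Arntl* through a second element, and DBP acts through D-boxes. In mouse tissues, *Arntl*, *Npas2* and *Clock* are known to peak around the end of the night, *Nr1d1*, *Nr1d2* and *Dbp* during the day, and the *Per* genes towards dusk, with *Cry1* late in the night. A heart taken at 1 moment therefore shows 1 position along this order.

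The elements behind these links were searched for in the promoters of the clock genes, taken from RefSeq (GRCm38.p6) as the 250 bases before and 50 bases after each start. Such windows were given for 9 of the 10 genes, with 13 starts in all, and *Per2* was without one. On both strands, the E-box CACGTG was found in 2 of 9 genes against 8.09% of 27025 genes with a window, and the E′-box CACGTT in 2 of 9 against 5.44%. The D-box, searched as TTATGTAA or TTATGCAA, was found in 2 of 9 genes against 1.98%, and the core TAGGTCA of the element bound by REV-ERB and ROR receptors in 1 of 9 against 2.97%. The stretches that hold them are shown because they are of the kind through which clock genes are known to be tied to each other. They are written 5′ to 3′ along each gene's own strand, with the motif in capitals, and AACGTG is CACGTT read from the other strand. A match of letters is a description and does not show that a factor was bound in these hearts.
Per1, E-box, chr11:69098753-69098818 (forward strand): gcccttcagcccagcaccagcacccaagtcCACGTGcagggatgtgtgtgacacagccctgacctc
Per1, D-box, chr11:69098895-69098948 (forward strand): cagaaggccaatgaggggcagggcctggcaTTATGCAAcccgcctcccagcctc
Per3, D-boxes, chr4:151044786-151044900 (reverse strand): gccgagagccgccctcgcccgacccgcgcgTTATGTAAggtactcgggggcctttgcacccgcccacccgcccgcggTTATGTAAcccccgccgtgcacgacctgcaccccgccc
Cry1, E′-box and E-box, chr10:85185079-85185163 (reverse strand): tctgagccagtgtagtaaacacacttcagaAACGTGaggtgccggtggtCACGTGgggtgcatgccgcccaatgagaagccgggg
Nr1d1, E′-box, chr11:98775378-98775435 (reverse strand): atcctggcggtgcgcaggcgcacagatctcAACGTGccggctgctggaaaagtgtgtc
Arntl, REV-ERB and ROR core, chr7:113207530-113207559 (forward strand): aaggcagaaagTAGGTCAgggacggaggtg

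The values are normalized counts, that is reads per gene divided by the authors with 1 factor per library, on 41364857 to 49100802 reads counted on genes per library. Every clock gene was measured well above the floor of the table, with at least 91 reads in each library. The targeted gene checks the labels: *Slc4a4* was at 264.0, 944.8 and 268.7 normalized counts in the libraries labelled KOb/c replicates 1, 2 and 3, and at 675.1, 822.2 and 788.8 in WT replicates 1, 2 and 3. Its log2 fold change, KOb/c over WT, was -0.90 (standard error, SE, 0.42, adjusted p = 0.239 by limma, exact two-sided permutation test p = 0.4), and the library labelled KOb/c replicate 2 was above each WT library. With it left out, *Slc4a4* had a log2 fold change of -1.51 (adjusted p = 0.0121 by limma over all genes), so this 1 library decides whether the targeted gene passes the threshold. The fold changes of the clock genes are therefore also given without it. Of the marker lists, the 5 genes of heart muscle cells (*Myh6*, *Tnnt2*, *Actc1*, *Ryr2* and *Myl2*) summed to 2163740 to 2423780 normalized counts in KOb/c and 1802170 to 1929990 in WT libraries. *Myh6* carried this gap, without which the sums overlapped. *Ryr2* was also higher in each KOb/c heart than in each WT heart (69453 ± 14002 against 45063 ± 3661, SD, n = 3 each), and *Actc1* had a higher mean in KOb/c. *Tnnt2* had a lower mean in KOb/c, and *Myl2* was lower in each KOb/c heart than in each WT heart (223484 ± 8468 against 252977 ± 6814, SD, n = 3 each). Groups that do not overlap were found for 30.2% of all genes tested. The 3 atrial genes (*Myl7*, *Sln* and *Myl4*) ran from 7343 to 39650 in KOb/c and from 14037 to 48081 in WT. The 4 brown fat genes (*Ucp1*, *Cidea*, *Elovl3* and *Adipoq*) summed to 975 to 5455 in KOb/c and 1961 to 4259 in WT, and none was at 0. The lowest sum, in KOb/c replicate 1, was mostly *Cidea*, at 939.9. In that heart *Ucp1* was at 17.9, *Adipoq* at 15.9 and *Elovl3* at 0.99, near the floor. Of 4 genes of thymus and lymphocytes, 1 was measured, *Ighm*, at 338.4 to 606.6 in KOb/c and 378.0 to 845.1 in WT, and *Cd3e*, *Rag1* and *Ptcra* were not analysed here.

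The question of KOb/c against WT was whether loss of NBCe1-B/C changes the level of the clock genes in the heart. By limma on log2(normalized count + 1), with Benjamini-Hochberg adjustment over the 16016 genes tested, 0 of 10 clock genes had an adjusted p under 0.05, as did 0.00% of all genes. At an unadjusted p under 0.05, 2 of 10 clock genes, *Clock* and *Nr1d1*, were higher in KOb/c, against 13.0% of all genes tested, and none was lower. The groups did not overlap for 1 of 10, *Nr1d1*, against 30.2% of all genes in either direction and 15.6% with KOb/c higher. On recovered reads, edgeR called 0 clock genes and gave an unadjusted p under 0.05 for 1 of 10, against 24.0% of all genes tested. DESeq2 called 1 of 10, *Nr1d1*, against 13.2% of the genes to which it gave an adjusted p, or 8.22% with KOb/c higher. The median log2 fold change was 0.17 over the 10 genes and -0.0043 over all genes tested. The log2 fold change was above 0 for 9 clock genes, against 49.2% of all genes tested, and below 0 for 1, *Dbp*. Several of these directions changed when 1 library was left out. Most clock genes spread widely between hearts of the same genotype. The median of their within-genotype SD was 0.57 on the log2 scale, against 0.14 over all genes tested, but it was 0.16 for *Nr1d1*, 0.25 for *Clock* and 0.27 for *Cry1*. A wide spread was not particular to them, with medians of 1.14 for the atrial and 1.93 for the brown fat markers.

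**Figure D1:**
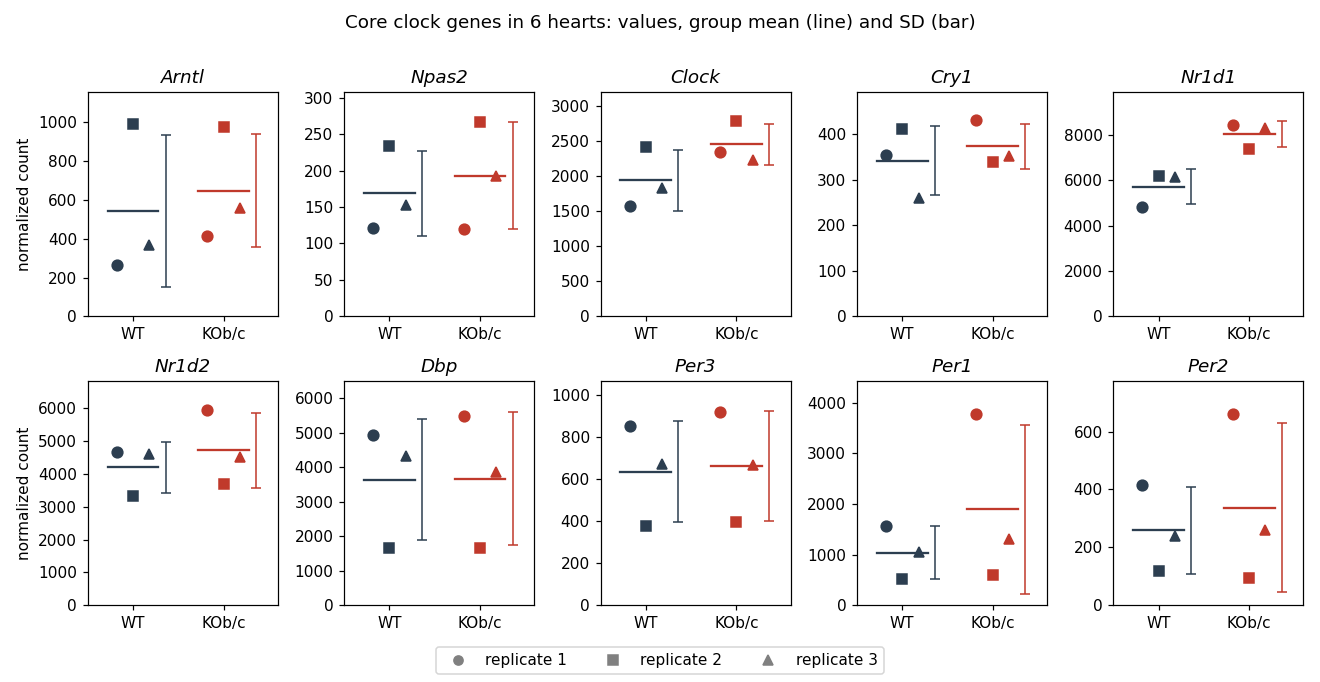
Normalized counts (vertical axes, each from 0) of the 10 core clock genes in 3 WT hearts (dark) and 3 KOb/c hearts (red), with the group mean as a line and the SD as a bar beside it. Replicate 2 of both genotypes (squares) is the highest or next to highest library for Arntl, Npas2 and Clock and among the lowest 2 for Nr1d2, Dbp and the Per genes, and Nr1d1 is the only gene here whose groups do not overlap.

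Among the activators, *Arntl* (ENSMUSG00000055116, chr7:113207465-113314126, forward strand), the partner that both CLOCK and NPAS2 need, was at 414.8, 973.8 and 556.1 normalized counts in KOb/c replicates 1, 2 and 3 and at 266.4, 988.6 and 368.1 in WT replicates 1, 2 and 3. The 2 highest hearts were replicate 2 of either genotype, and the groups overlapped over most of their range. The means were 648 ± 291 in KOb/c and 541 ± 391 in WT (SD, n = 3 each), so that the log2 fold change was 0.40 (SE 0.46, adjusted p = 0.645 by limma, exact permutation p = 0.6). Between the highest and the lowest heart, *Arntl* differed 3.71 times. Without KOb/c replicate 2, the log2 fold change was 0.064, and over the libraries left out in turn it reached 0.95.

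*Npas2* (ENSMUSG00000026077, chr1:39193731-39363236, forward strand), the relative of *Clock*, was at 120.1, 266.7 and 192.4 in KOb/c and at 120.9, 233.9 and 152.6 in WT replicates 1, 2 and 3. It had the same order within each genotype, with replicate 2 highest, replicate 3 next and replicate 1 lowest. The log2 fold change of *Npas2* was 0.17 (SE 0.32, adjusted p = 0.786 by limma), or -0.098 without KOb/c replicate 2 and -0.043 without WT replicate 1. *Clock* (ENSMUSG00000029238, chr5:76209868-76304792, reverse strand) is known to cycle weakly, and its highest heart was 1.77 times its lowest. Its normalized count was 2343, 2794 and 2230 in KOb/c and 1576, 2424 and 1828 in WT replicates 1, 2 and 3. Only WT replicate 2 lay within the range of the KOb/c hearts. The means were 2456 ± 298 in KOb/c and 1943 ± 436 in WT (SD, n = 3 each), with a log2 fold change of 0.35 (SE 0.15, adjusted p = 0.203 by limma, exact permutation p = 0.3). The annotated transcript of *Clock* is 9744 nucleotides long, against a median of 3188 over all genes tested, and once transcript length and GC content were corrected for, its log2 fold change was 0.14. Without KOb/c replicate 2 it was 0.26.

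Of the repressors, *Per1* (ENSMUSG00000020893, chr11:69095217-69109960, forward strand), which carries the E-box and the D-box printed above and also responds to hormones, had the widest range of the 10. It was at 3769, 598.5 and 1313 normalized counts in KOb/c and at 1560, 513.5 and 1042 in WT replicates 1, 2 and 3. The highest heart, KOb/c replicate 1, was 7.34 times the lowest, WT replicate 2, and in both genotypes replicate 1 was highest and replicate 2 lowest. The means were 1894 ± 1663 in KOb/c and 1039 ± 523 in WT (SD, n = 3 each). The log2 fold change of 0.61 (SE 0.61, adjusted p = 0.595 by limma, exact permutation p = 0.6) was the largest among the 10 genes, and it was -0.087 without KOb/c replicate 1 and 1.24 without KOb/c replicate 2. The within-genotype SD was 1.10 on the log2 scale for *Per1* and 1.18 for *Per2*, values that 0.930% and 0.799% of all genes tested exceeded.

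*Per2* (ENSMUSG00000055866, chr1:91415982-91459324, reverse strand), the PER protein best known as a brake on the ARNTL pair, followed *Per1* from heart to heart. Its normalized count was 660.0, 94.1 and 259.0 in KOb/c and 416.9, 119.5 and 239.2 in WT replicates 1, 2 and 3, a range of 7.02 times. For *Per2* the log2 fold change was 0.14 (SE 0.66, adjusted p = 0.922 by limma), -0.55 without KOb/c replicate 1 and 0.85 without KOb/c replicate 2. The ratio of *Per1* to *Per2* was 5.71, 6.36 and 5.07 in KOb/c and 3.74, 4.30 and 4.36 in WT replicates 1, 2 and 3. On this ratio, which was not tested, the KOb/c hearts lay above the WT hearts. *Per3* (ENSMUSG00000028957, chr4:151003652-151044665, reverse strand), with the pair of D-boxes shown above, was at 923.0, 399.0 and 667.8 in KOb/c and at 855.4, 379.4 and 674.4 in WT replicates 1, 2 and 3. Same-numbered hearts of the 2 genotypes were close to each other for this gene, and its log2 fold change was 0.056 (SE 0.34, adjusted p = 0.943 by limma), -0.22 without KOb/c replicate 1, 0.38 without KOb/c replicate 2 and -0.28 without WT replicate 2. *Cry1* (ENSMUSG00000020038, chr10:85131700-85185064, reverse strand), the strongest repressor of the loop, moved least. It was at 430.7, 339.1 and 351.2 in KOb/c and at 354.5, 410.6 and 259.8 in WT replicates 1, 2 and 3, so its hearts came in another order than for the *Per* genes. Its log2 fold change was 0.15 (SE 0.17, adjusted p = 0.658 by limma), or 0.21 without KOb/c replicate 2 and -0.038 without WT replicate 3.

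The REV-ERB genes repress *Arntl*. *Nr1d1* (ENSMUSG00000020889, chr11:98767932-98775333, reverse strand) was at 8425, 7352 and 8320 normalized counts in KOb/c and at 4825, 6203 and 6130 in WT replicates 1, 2 and 3. Each KOb/c heart was above each WT heart, including the library labelled KOb/c replicate 2, in which *Slc4a4* was at the WT level. The means were 8032 ± 591 in KOb/c and 5719 ± 775 in WT (SD, n = 3 each), so that the log2 fold change was 0.50 (SE 0.11, adjusted p = 0.0815 by limma). That adjusted value was also the lowest among all genes tested, but it was shared with other genes, *Gsk3b* and *Ryr2* among them. The unadjusted p by limma was smaller for *Gsk3b*, 0.00035 against 0.0012 for *Nr1d1*, and 1163 genes had an adjusted p under 0.1. For *Nr1d1*, the exact permutation test gave p = 0.1, the smallest that 3 hearts against 3 allow. The adjusted p was 0.000761 by DESeq2 and lay between 0.000761 and 0.347 over all alternatives, in which the log2 fold change lay between 0.34 and 0.57. Without KOb/c replicate 2 it was 0.56. With a transcript of 2721 nucleotides, *Nr1d1* is shorter than the median gene, and its log2 fold change after the correction for length and GC content was 0.57. It overlaps *Thra* on the opposite strand over 263 of its 3077 exonic bases, and the strand setting of the counting is not given in the sources used here. *Thra* itself was at 6505, 6725 and 6988 in KOb/c and at 6730, 7354 and 6256 in WT, a log2 fold change of -0.0062 (SE 0.073, adjusted p = 0.971 by limma).

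*Nr1d2* (ENSMUSG00000021775, chr14:18204054-18239127, reverse strand), the paralog, did not share that order. It was at 5954, 3705 and 4504 in KOb/c and at 4674, 3315 and 4593 in WT replicates 1, 2 and 3, with replicate 2 lowest in both genotypes and the groups overlapping. Its log2 fold change was 0.16 (SE 0.18, adjusted p = 0.641 by limma), and it was 0.32 without KOb/c replicate 2 and -0.021 without KOb/c replicate 1. *Dbp* (ENSMUSG00000059824, chr7:45705088-45710203, forward strand), an output of the loop with a strong cycle, was at 5486, 1652 and 3867 in KOb/c and at 4944, 1667 and 4312 in WT replicates 1, 2 and 3. Replicate 2 of either genotype was below the other 4 hearts, and the highest heart was 3.32 times the lowest. The genotype means were 3668 ± 1925 and 3641 ± 1738 (SD, n = 3 each), with a log2 fold change of -0.0069 (SE 0.49, adjusted p = 0.995 by limma), and 0.49 without KOb/c replicate 2. *Dbp* overlaps *Sphk2* on the opposite strand over 539 of 2993 exonic bases, and *Sphk2* was highest in the replicate 2 hearts, at 1211 and 1278 normalized counts, where *Dbp* was lowest.

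Per kilobase of the annotated transcript, which lets levels be compared between genes, *Nr1d1* stood highest, with 2952 ± 217 normalized counts per kilobase in KOb/c and 2102 ± 285 in WT (SD, n = 3 each). *Dbp* came next with 1997 ± 1048 and 1982 ± 946, and then *Nr1d2* with 1012 ± 244 and 899 ± 164. *Per1* followed at 405 ± 356 and 222 ± 112, *Clock* at 252 ± 30.6 and 199 ± 44.7, *Arntl* at 162 ± 72.8 and 135 ± 97.9, *Cry1* at 123.5 ± 16.5 and 113 ± 25.2, and *Per3* at 111 ± 43.7 and 106 ± 40.05. At the lower end were *Per2*, with 57.9 ± 49.9 and 44.3 ± 25.7, and *Npas2*, with 45.6 ± 17.3 and 39.9 ± 13.8. In both genotypes, the means ± SD of neighbours in this order overlapped for every pair but *Nr1d2* and *Per1*, so the rest of the order is not firm.

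The phase of each single heart was read from how far each gene lay from its mean over the 6 libraries on the log2 scale. The time of day at which the hearts were taken and the light cycle are not given in the sources used here. Only an order of the hearts by their balance of night-end against day and dusk genes can therefore be described. A middle place in that order can belong to the rising or the falling side of the cycle, or to a weaker cycle, and these were not told apart. KOb/c replicate 2 had *Arntl* 0.88 and *Npas2* 0.62 above their means, and *Dbp* 0.99, *Per1* 0.96 and *Per2* 1.34 below them. WT replicate 2 had *Arntl* 0.90 above its mean, and *Dbp* 0.98, *Per1* 1.18 and *Per2* 1.00 below. Both were the hearts nearest to the *Arntl* peak, which belongs to the end of the night and the start of the day. WT replicate 1 had *Arntl* 0.99 below its mean, *Dbp* 0.59 above and *Per2* 0.79 above, and KOb/c replicate 1 had *Arntl* 0.35 below, *Dbp* 0.74 above and *Per2* 1.45 above. These 2 hearts were furthest towards the day and dusk side of the order, though not for every gene. In KOb/c replicate 1, *Clock* and *Cry1* lay 0.12 and 0.29 above their means, and in WT replicate 1 *Nr1d1* lay 0.48 below its mean. KOb/c replicate 3 lay at most 0.30 from the mean for every clock gene, and WT replicate 3 had *Arntl* 0.52 below its mean, *Dbp* 0.39 above and *Per2* near it, so both were in between, with WT replicate 3 nearer to the replicate 1 hearts.

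**Figure D2:**
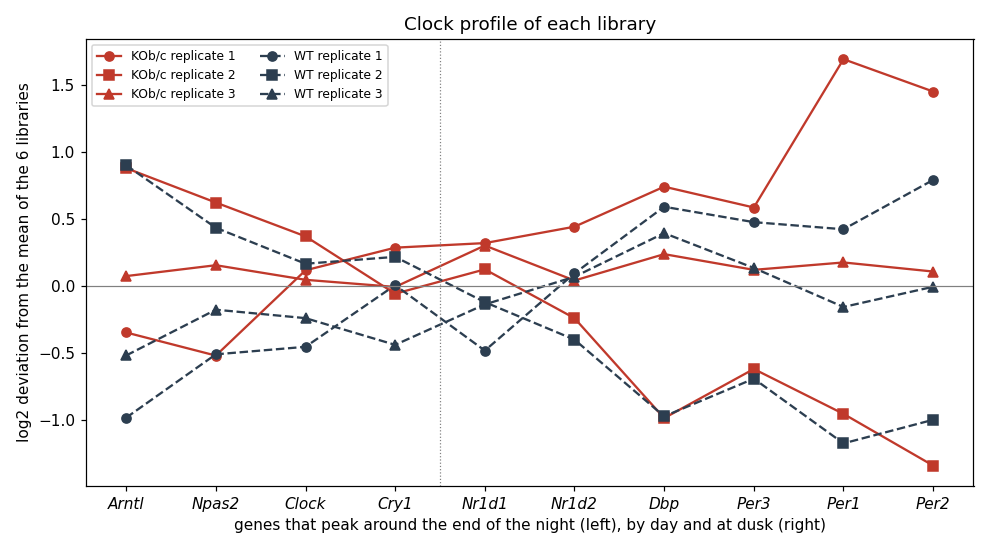
Log2 deviation of each clock gene from its mean over the 6 libraries (vertical axis), with genes ordered from those known to peak around the end of the night (left) to those of the day and dusk (right), in KOb/c (solid red) and WT (dashed dark) hearts; lines only join the values of 1 library. Both replicate 2 hearts run from 0.88 and 0.90 for Arntl down to below -0.9 for Dbp, Per1 and Per2. For these genes, though not for Clock, Cry1 and Nr1d1 in each case, both replicate 1 hearts run the other way.

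Averaged over the genes that peak around the end of the night (*Arntl*, *Npas2*, *Clock* and *Cry1*), the deviation was -0.12, 0.45 and 0.07 in KOb/c and -0.49, 0.43 and -0.35 in WT replicates 1, 2 and 3. For the genes of the day and dusk (*Nr1d1*, *Nr1d2*, *Dbp* and the 3 *Per* genes), it was 0.87, -0.67 and 0.16 in KOb/c and 0.32, -0.73 and 0.05 in WT. The difference of the first mean minus the second was -0.99, 1.13 and -0.10 in KOb/c and -0.80, 1.16 and -0.39 in WT replicates 1, 2 and 3. Each genotype thus had hearts at both ends, with same-numbered hearts next to each other in the order. Over all genes, same-numbered hearts deviated together only weakly, and the labels do not say that a number marks a shared day or litter.

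A measure from *Arntl* and *Dbp* alone does not depend on the scaling between libraries, but it shares these genes with the means above. It gave the same order, except that the replicate 1 hearts traded places. *Arntl* reads as a percentage of *Arntl* plus *Dbp* reads were 37.1% in KOb/c replicate 2 (942 and 1598 reads, exact 95% binomial interval 35.2% to 39.0%) and 37.2% in WT replicate 2 (951 and 1604 reads, 35.3% to 39.1%). Of these, neither could be told from the other by counting error. In the other hearts the share was 12.6% (11.7% to 13.5%) in KOb/c replicate 3, 7.87% (7.10% to 8.69%) in WT replicate 3, 7.03% (6.39% to 7.71%) in KOb/c replicate 1 and 5.11% (4.52% to 5.75%) in WT replicate 1. The intervals of WT replicate 3 and KOb/c replicate 1 overlapped, and they cover counting error only.

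**Figure D3:**
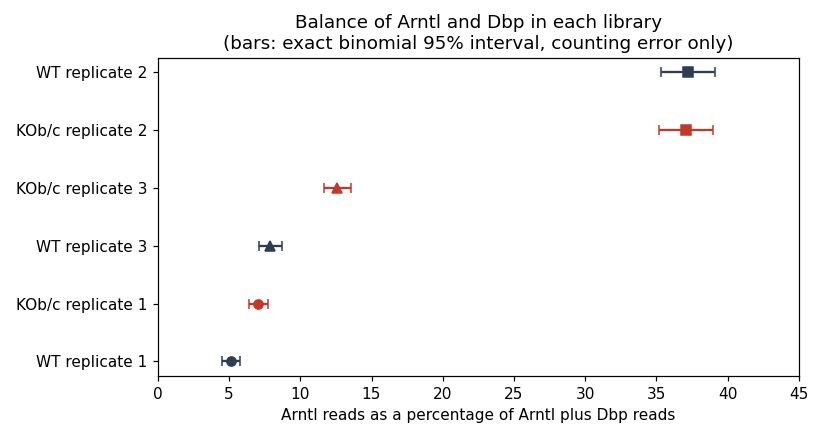
Arntl reads as a percentage of Arntl plus Dbp reads (horizontal axis, from 0) in each of the 6 hearts, with exact 95% binomial intervals as bars. Replicate 2 of both genotypes is at 37.1% and 37.2%, and the other 4 hearts are between 5.11% and 12.6%.

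In gene counts, the replicate 2 hearts were the 2 lowest of 6 for 5 of 10 clock genes, *Per1*, *Per2*, *Per3*, *Nr1d2* and *Dbp*, and the 2 highest for 3 of 10, *Arntl*, *Npas2* and *Clock*. Over all genes tested, 6.08% had both replicate 2 hearts lowest and 5.84% had both highest. *Nr1d1* was the exception on the day side. Its order followed genotype, with KOb/c replicate 2 0.12 above its mean while *Dbp* in the same heart was 0.99 below. Markers of other cell types also differed between the hearts. The atrial sum was lowest in the replicate 1 hearts, at 7343 in KOb/c and 14037 in WT against 32397 to 48081 in the other 4. In that sum the replicate 2 hearts, at 32397 and 40209, did not part from the replicate 3 hearts, at 39650 and 48081. The brown fat sum was lowest in the replicate 1 hearts too, at 975 and 1961, though *Cidea* was lower in WT replicate 3 than in WT replicate 1. The part of these cell types in the clock values was not tested, and in bulk RNA fewer cells of a type and less RNA per cell cannot be told apart. With both replicate 1 hearts left out, the log2 fold change was 0.34 for *Nr1d1*, 0.29 for *Arntl*, 0.28 for *Per1* and -0.11 for *Per2*.

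Other regulators of the loop were taken as a list of 9, all measured: *Cry2*, *Rora* and *Rorb*, whose receptors compete with REV-ERB, the repressors *Bhlhe40* (DEC1), *Bhlhe41* (DEC2) and *Ciart*, and *Nfil3*, *Tef* and *Hlf*, which act on D-boxes. Their log2 fold changes were above 0 for 6, against 49.2% of all genes tested, and below 0 for 3, with a median of 0.21. By limma, 0 of 9 passed the adjusted threshold. For 1, *Rora*, the unadjusted p was under 0.05, against 13.0% of all genes tested with KOb/c higher. The replicate 2 hearts were the 2 lowest for *Cry2*, *Bhlhe40*, *Bhlhe41*, *Ciart*, *Tef* and *Hlf*, and the 2 highest for *Nfil3*. *Tef*, a relative of *Dbp*, was at 7828, 3724 and 5701 normalized counts in KOb/c and at 6935, 3844 and 6025 in WT replicates 1, 2 and 3. *Ciart*, a repressor with a strong cycle, was at 201.5, 35.1 and 78.9 in KOb/c and at 128.1, 49.9 and 102.1 in WT. *Nfil3*, which opposes DBP at D-boxes, ran the other way, at 355.3, 564.4 and 437.2 in KOb/c and at 345.2, 654.9 and 390.8 in WT. The log2 fold changes of these 3 genes were 0.016 (SE 0.28), -0.07 (0.58) and -0.0037 (0.25).

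*Rora*, which activates *Arntl* through the element that REV-ERB represses, was 1372, 1159 and 1115 in KOb/c and 887.2, 901.2 and 981.7 in WT replicates 1, 2 and 3, and its groups did not overlap. Its log2 fold change was 0.39 (SE 0.095, adjusted p = 0.0844 by limma and 0.00896 by DESeq2), and 0.16 after the length and GC correction, with a transcript of 10878 nucleotides. *Rorb*, of which few reads were counted in the heart, was at 20.8, 35.1 and 23.1 in KOb/c and at 13.3, 19.8 and 16.5 in WT, also without overlap (log2 fold change 0.62, SE 0.32, adjusted p = 0.270 by limma). The groups thus did not overlap for 2 of the 9 genes, against 15.6% of all genes tested with KOb/c higher. For *Cry2*, *Hlf*, *Bhlhe40* and *Bhlhe41* the log2 fold change was 0.25 (0.21), 0.27 (0.28), 0.21 (0.36) and -0.042 (0.20), and none of these had groups that parted. Without KOb/c replicate 2, the log2 fold changes were 0.46 for *Cry2*, 0.55 for *Hlf*, 0.59 for *Bhlhe40*, 0.16 for *Bhlhe41*, 0.53 for *Ciart*, 0.30 for *Tef*, -0.18 for *Nfil3*, 0.42 for *Rora* and 0.40 for *Rorb*.

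**Figure D4:**
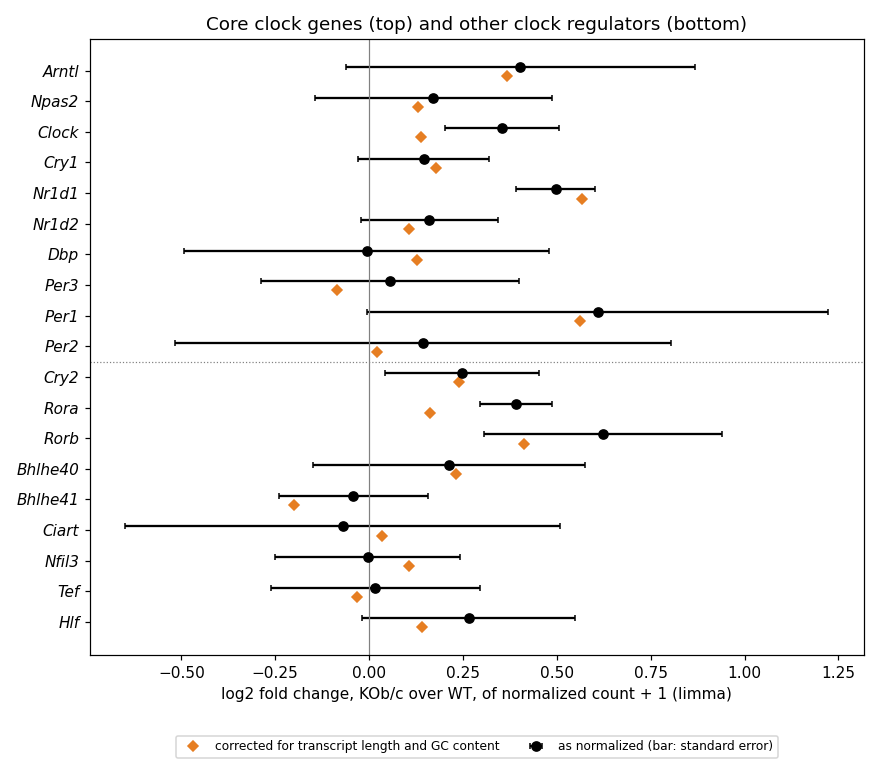
Log2 fold change, KOb/c over WT, from limma (horizontal axis; black points, bars are the standard error) for the 10 core clock genes (top) and 9 other clock regulators (bottom), with the value after correction for transcript length and GC content as orange diamonds. Nr1d1 is at 0.50 and 0.57 after the correction, while Clock and Rora come down from 0.35 and 0.39 to 0.14 and 0.16.

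Enzymes that act on the turnover of clock proteins were taken as a list of 8, of which 7 were measured and *Fbxl21* was not analysed here. All 7 log2 fold changes were above 0, against 49.2% of all genes tested, with a median of 0.091. By limma, 0 genes passed the adjusted threshold and 1 had an unadjusted p under 0.05, against 13.0% of all genes tested with KOb/c higher. That gene was *Gsk3b*, a kinase of several clock proteins, at 2817, 2400 and 2292 in KOb/c and 1622, 1880 and 1648 in WT replicates 1, 2 and 3. Its log2 fold change was 0.54 (SE 0.095, adjusted p = 0.0815 by limma and 0.000137 by DESeq2), or 0.33 after the correction for length and GC content. The casein kinase gene *Csnk1e* had the smallest value of the list, 0.016 (SE 0.091), or 0.073 without KOb/c replicate 2.

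Among 6 clock-controlled genes of the heart, 4 log2 fold changes were above 0, against 49.2% of all genes tested, and 2 below it. Their median was 0.099, and none passed the adjusted threshold. *Klf15*, a transcription factor that links the clock to the rhythm of repolarization, was at 2845, 1437 and 1903 in KOb/c and at 1635, 1389 and 1268 in WT (log2 fold change 0.48, SE 0.22, adjusted p = 0.222 by limma). *Wee1*, a cell cycle kinase under E-box control, was at 711.6, 315.3 and 415.9 in KOb/c and at 735.5, 315.0 and 463.0 in WT, the same order as the *Per* genes in both genotypes, with a log2 fold change of -0.067 (SE 0.34). Without KOb/c replicate 2, these values were 0.71 for *Klf15* and 0.19 for *Wee1*. The potassium channel gene *Kcnd2*, named after its values were seen, was the 1 with an unadjusted p under 0.05, against 13.0% of all genes tested with KOb/c higher. Its log2 fold change was 0.37 (SE 0.091, adjusted p = 0.0844 by limma). *Kcnip2* and *Kcnh2*, also of this list and named after their values were seen, were at -0.061 (SE 0.093) and 0.12 (SE 0.081). The groups overlapped for both. A change in repolarization was not tested here.

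Genes that report the cues by which the body sets peripheral clocks, namely temperature, glucocorticoids and fasting, were taken as a list of 8. Of these, 6 log2 fold changes were above 0, against 49.2% of all genes tested, and 2 below it, with a median of 0.32. By limma, none passed the adjusted threshold and 1 had an unadjusted p under 0.05, against 13.0% of all genes tested with KOb/c higher. That was the heat shock gene *Hsph1* (0.32, SE 0.13), while another, *Hspa1b*, was at -0.13 (SE 0.27), both named after their values were seen. The largest log2 fold change was that of *Pdk4*, a kinase that turns glucose oxidation down in fasting, at 19091, 57122 and 17396 in KOb/c and 8566, 19329 and 15483 in WT replicates 1, 2 and 3 (log2 fold change 0.96, SE 0.45, adjusted p = 0.234 by limma). Its highest heart was KOb/c replicate 2, and without it the log2 fold change was 0.41. *Angptl4*, also of the list and named after its values were seen, was highest in that heart too, at 5041. Its log2 fold change was 0.31 (SE 0.67), but -0.50 without KOb/c replicate 2. The lowest log2 fold change of the list with all hearts was that of the cold-induced gene *Rbm3*, at -0.17 (SE 0.10, adjusted p = 0.354 by limma), or -0.097 without KOb/c replicate 2. Another cold-induced gene of the list, *Cirbp*, named after its values were seen, went the other way, at 0.25 (SE 0.12, adjusted p = 0.237 by limma). Its groups did not overlap, against 15.6% of all genes tested with KOb/c higher. *Fkbp5*, a target of the glucocorticoid receptor named after its values were seen, was at 1894 in KOb/c replicate 1, the heart with the highest *Per1*, and between 363.9 and 711.0 in the other 5. The part of this in the *Per1* value was not tested.

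The genes whose pattern over the 6 hearts was most like that of *Arntl* were sought among 604 genes whose mean reached 100 normalized counts, with a log2 range of at least 1. Of these, 8 had a Pearson correlation with *Arntl* of at least 0.9 and 8 of at most -0.9, over 6 libraries, given as a description. Among the highest were *Cd74* (0.951), *Chrna2* (0.949), *H2-Ab1* (0.932) and *Acot1* (0.927). *Cd74* and *H2-Ab1* serve antigen presentation, and the lymphocyte gene *Ighm* was also highest in WT replicate 2, at 845.1. The lowest were *Ier3* (-0.958), *Plaur* (-0.943), *Coq10b* (-0.924), *Arid5a* (-0.917) and *Tnfrsf25* (-0.910). *Ier3*, an early response gene, was at 1500 in KOb/c replicate 1 and 1785 in WT replicate 1, against 729 and 795 in the replicate 2 hearts.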

How the data were processed

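RNAseq of 6 hearts was analysed from the authors' deposited table of normalized counts, a signal per gene in which the authors divided read counts by 1 factor per library, without scaling to length. The submitters' processing notes name Trimmomatic 0.36, STAR 2.5.2b, featureCounts of Subread 1.5.2, DESeq2 and GRCm38, with no strand setting. Groups came from the sample labels, and columns were matched by animal name. Gene positions and transcript lengths are from GENCODE M21, symbols matched 15985 of 16018 identifiers, and promoters are from RefSeq. limma 3.58.1 (R 4.3.3) was run on log2(normalized count + 1), which understates changes of low genes, with a variance trend, two-sided, over 16016 genes with a mean of at least 10, with a threshold of 0.05. Single genes also had exact permutation tests. Genes named beside the clock genes were all other regulators, the largest rise and fall of each other list, and the 5 genes most and least like *Arntl*. The members and lists were chosen with earlier results of these data known. Some genes that meet these rules are not reported here, and the lists are counted without them. Values divided by that of 1 read came out whole (within 0.01) for 100% of values in each library, and edgeR 4.0.16 and DESeq2 1.42.0 were run on these reads as alternatives. A separate check of the steps in the values held in 4 of the 6 libraries only, so these count tests rest on a recovery not fully checked. Other alternatives were pseudocounts of 0.5 and 5, no filter or a minimum mean of 50, one total for all libraries, a spline correction (5 degrees of freedom) for transcript length and GC content, the replicate number as a block, and libraries left out. The same-numbered correlations of the deviations were 0.23, 0.07 and -0.03, so the numbers were not taken as pairs. The procedures were tested on simulated data.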

Additional observations from a re-analysis of the deposited data

How the results depend on the processing

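Of the alternatives with all libraries, the Wald test of DESeq2 moved the counts of calls most, with 1 clock gene (*Nr1d1*, log2 fold change 0.49) and 1587 genes in all, against 0 and 0 by limma. With each library left out in turn, all genes called ranged from 0 to 3, the highest without KOb/c replicate 2. Clock genes whose groups did not overlap ranged from 1 to 3, the highest without WT replicate 2 (*Arntl*, *Clock* and *Nr1d1*). Smaller groups part more easily, and the share of all genes that parted with a library left out was not computed. The rise to 3 is therefore not read as a result. The log2 fold changes then ran from -0.098 to 0.47 for *Npas2*, -0.087 to 1.24 for *Per1*, -0.55 to 0.85 for *Per2*, -0.28 to 0.38 for *Per3*, -0.038 to 0.29 for *Cry1*, -0.021 to 0.32 for *Nr1d2* and -0.50 to 0.49 for *Dbp*, so none of these 7 kept its direction. *Arntl* (0.011 to 0.95), *Clock* (0.22 to 0.53) and *Nr1d1* (0.38 to 0.56) did. *Per3* was at -0.017 after rescaling to the same total and -0.085 after the length and GC correction, and *Dbp* at 0.13 after that correction, 0.01 by edgeR and 0.011 by DESeq2. Without both replicate 1 hearts, an alternative chosen after the data were seen, *Per2* was at -0.11. The cause was not tested. With the replicate block, 0 clock genes and 0 genes in all passed, and *Nr1d1*, *Clock*, *Per1* and *Arntl* had adjusted p values by limma of 0.105, 0.107, 0.128 and 0.152. Not every heart deviated most like the one with its own number: KOb/c replicate 2 was nearest to WT replicate 3 and KOb/c replicate 3 to WT replicate 2. With 3 hearts a group taken at unknown times of day, a change in the clock genes within their spread was not detectable.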
